A study of Mus musculus with 8 samples.

Results

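The genes described here are the transcription factors, enzymes and transporters of the amino acid response that the transcription factor ATF4 drives, together with the aminoacyl-tRNA synthetases. They were taken by gene symbol: every symbol made of a capital letter, ars and at most a digit from 1 to 3, the symbols that begin with Eprs, Farsa or Farsb, and 18 response genes given by name. The rule found 56 of the 22244 genes in the count table, namely 7 regulators, 6 amino acid synthesis enzymes, 5 amino acid transporters, 21 cytosolic and 17 mitochondrial synthetases. RNA was taken from lungs of adult wildtype males of the inbred mouse strain C57BL/6J, with the right cranial lobe sampled in each. The 4 control mice are labelled as having had no treatment, and the other 4 were injected with naphthalene, an aromatic hydrocarbon that airway club cells turn into toxic metabolites. The sources used here give no dose, vehicle or time from injection to sampling, so the injection itself and naphthalene cannot be told apart. Total RNA libraries were made with a stranded kit and no cell sorting is named, so each value is an average over all cells of the lobe.

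When amino acids run short, or when other stresses act, kinases phosphorylate the initiation factor eIF2, general translation slows and the ATF4 messenger is translated more. ATF4 pairs with C/EBP proteins at composite DNA elements and turns on genes for amino acid uptake, synthesis of asparagine, serine and one-carbon units, and the charging of tRNAs. Its protein level is set largely by translation, so the messenger measured here is only 1 layer of its control. Aminoacyl-tRNA synthetases join each amino acid to its tRNA, with separate sets of genes for most cytosolic and mitochondrial enzymes. The comparison asks how this programme differs between lungs of naphthalene-injected and untreated mice.

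Of the 56 genes, 50 had enough counts to be tested and 6 were listed at 0 in all 8 libraries, 3 of them cytosolic and 3 mitochondrial synthetases. All 6 lie on chromosome 1, where 1138 of 1150 protein-coding genes matched to RefSeq were listed at 0 in every library, against 0.399% to 11.5% of those on each other autosome. These zeros therefore give no level for the 6 genes, and the cause was not tested. Some pathway and marker genes below were also listed at 0 in all libraries, and those zeros are not read as absence of expression. Library totals ranged from 10743842 to 16792306 counts. The alveolar genes Sftpc and Ager and the club cell gene Scgb1a1 were present in all libraries, as in lung.

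Most of the programme was higher after naphthalene. Of the 50 tested genes, 28 rose, 1 fell and 21 did not pass the threshold (edgeR quasi-likelihood test, Benjamini-Hochberg adjusted p under 0.05 over all tested genes). Among all 14192 tested genes, 14.1% rose and 14.6% fell, 28.7% in total. The median log2 fold change of the 50 genes was 0.44, against 0.01 over all tested genes. The 4 values of one group did not overlap those of the other for 24 of the 50 genes, and for 28.6% of all genes. By role, 5 of 7 regulators, 4 of 6 synthesis enzymes, 3 of 5 transporters, 14 of 18 cytosolic synthetases and 2 of 14 mitochondrial synthetases rose. Leaving out 1 library at a time gave 19 to 28 higher genes, and 20 of the 29 called genes kept their call without any 1 of the 8 libraries. Over all tested genes the same omissions gave 1397 to 2465 higher, against 2005 with all 8 libraries. Most changes were below 2-fold.

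**Figure D1:**
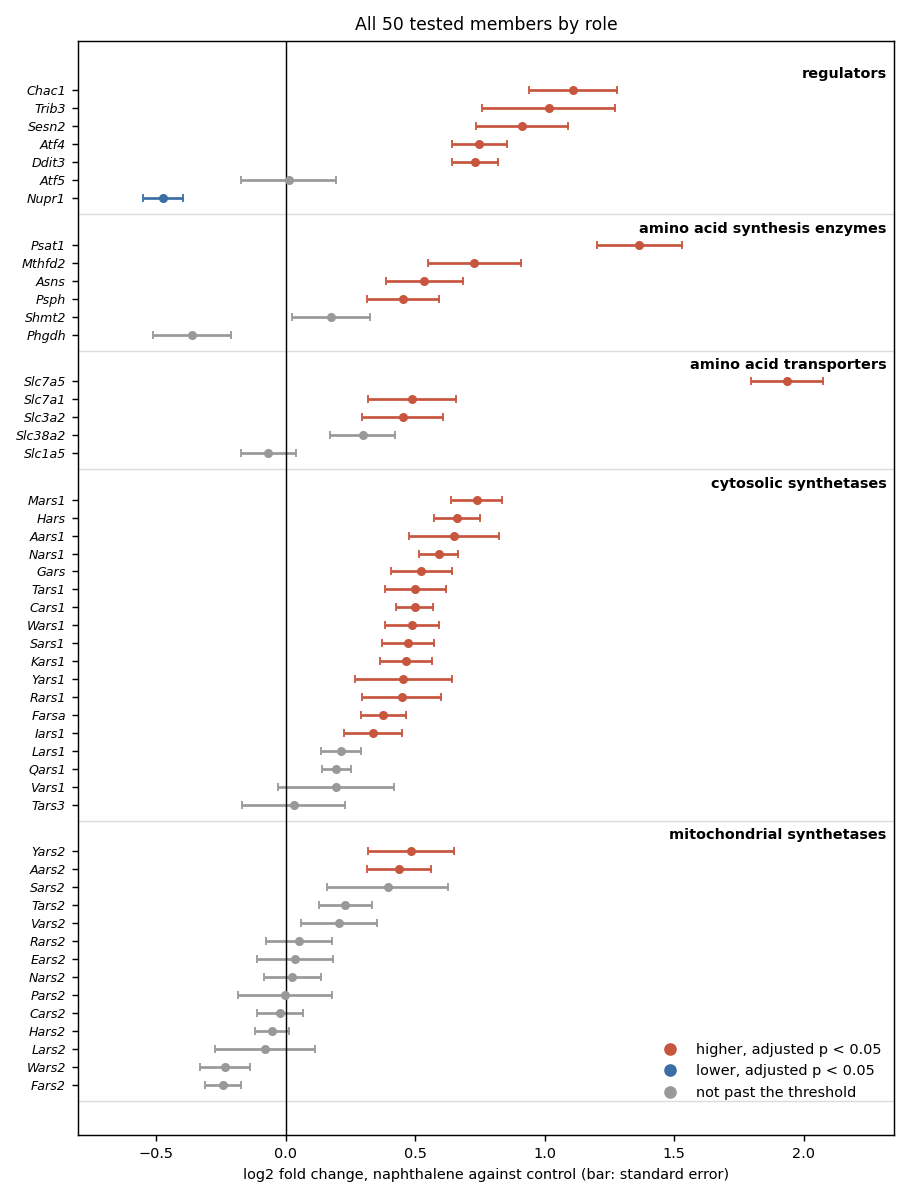
Log2 fold change of naphthalene against control (x axis) for each of the 50 tested genes (y axis), grouped by role, with bars for the standard error. Slc7a5 lies farthest to the right at 1.93, Nupr1 is the 1 gene called lower, and the mitochondrial synthetases spread around 0.

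Levels of cell type markers differed between the groups as well. In bulk tissue, fewer cells of a type and less RNA per cell cannot be told apart. Club cell markers fell for 9 of 10 genes, with a summed level of 6495 to 12794 CPM in controls and 2009 to 4175 CPM after naphthalene. Ciliated cell markers fell for 9 of 10, from 532.5 to 837 CPM down to 98.0 to 191 CPM. T cell markers fell for 10 of 11 (57.6 to 66.9 against 22.7 to 33.7 CPM), B cell markers for 7 of 7 tested (144 to 197 against 46.8 to 80.1 CPM, with Cr2 listed at 0) and NK cell markers for 7 of 7 (37.2 to 50.5 against 9.13 to 19.8 CPM). Of 8 alveolar type 2 markers 3 rose and 0 fell (14496 to 17504 against 16366 to 20104 CPM), and of 6 tested neutrophil markers 2 rose and 0 fell (117 to 412 against 217 to 538 CPM, with Cxcr2 listed at 0). Groups overlapped for every tested neutrophil marker. Of 7 alveolar type 1 markers 3 rose and 0 fell, and of 8 endothelial markers 0 rose and 2 fell. Plasma cell markers rose for 2 and fell for 3 of 6 tested (467 to 501 against 571 to 652 CPM). Alveolar macrophage markers rose for 1 and fell for 1 of 7 tested. Monocyte and macrophage markers rose for 2 and fell for 2 of 10, and fibroblast markers fell for 1 of 7 tested. Among all tested genes 14.1% rose and 14.6% fell. The part of these shifts in the changes of the amino acid response genes was not tested.

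Of the 7 regulators 5 rose, by a log2 fold change of 0.73 to 1.11. Atf4, the transcription factor itself, stood at 126, 136, 134 and 136 CPM in controls 1 to 4 and 207, 231, 264 and 189 CPM in naphthalene 1 to 4 (log2 fold change 0.75, SE 0.11, adjusted p = 0.000561). Every injected mouse lay above every control, by 1.68-fold in the fitted mean. Ddit3, which encodes the ATF4-induced factor CHOP, stood at 15.96, 16.4, 14.8 and 13.7 CPM in controls 1 to 4 and 23.7, 25.8, 28.6 and 23.2 CPM in naphthalene 1 to 4 (log2 fold change 0.73, SE 0.09, adjusted p = 0.000879). It moved by nearly the same factor as Atf4, again without overlap between the groups. Trib3, a pseudokinase that binds and restrains ATF4 and is itself a target of ATF4, stood at 2.78, 3.19, 1.76 and 4.01 CPM in controls 1 to 4 and 6.31, 6.001, 6.77 and 4.85 CPM in naphthalene 1 to 4 (log2 fold change 1.01, SE 0.26, adjusted p = 0.00911). Its controls were scattered, control 3 being the lowest and control 4 the highest, and still below all 4 injected mice. Chac1, an enzyme that degrades glutathione, stood at 3.59, 2.61, 2.99 and 2.79 CPM in controls 1 to 4 and 6.25, 6.91, 7.73 and 4.85 CPM in naphthalene 1 to 4 (log2 fold change 1.11, SE 0.17, adjusted p = 0.0021), the largest change among the regulators. Sesn2, a leucine sensor that restrains mTORC1, stood at 13.1, 11.6, 10.1 and 14.97 CPM in controls 1 to 4 and 26.7, 25.2, 24.2 and 17.7 CPM in naphthalene 1 to 4 (log2 fold change 0.91, SE 0.18, adjusted p = 0.00184). Naphthalene 4 was the lowest injected mouse for Sesn2, yet above the highest control.

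Atf5 and Nupr1 did not follow. Atf5, a close relative of Atf4 that is also controlled by translation, stood at 24.2, 18.7, 18.6 and 20.3 CPM in controls 1 to 4 and 27.1, 18.98, 15.7 and 20.3 CPM in naphthalene 1 to 4 (log2 fold change 0.01, SE 0.18, adjusted p = 0.967), with injected mice both above and below the controls. Nupr1, a small stress-induced chromatin protein, fell and stood at 54.1, 65.02, 66.8 and 61.9 CPM in controls 1 to 4 and 41.4, 45.7, 46.6 and 44.8 CPM in naphthalene 1 to 4 (log2 fold change -0.47, SE 0.08, adjusted p = 0.00377). All 4 injected mice were below all 4 controls, and the call held without any 1 library and under the other settings tried. 

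**Figure D2:**
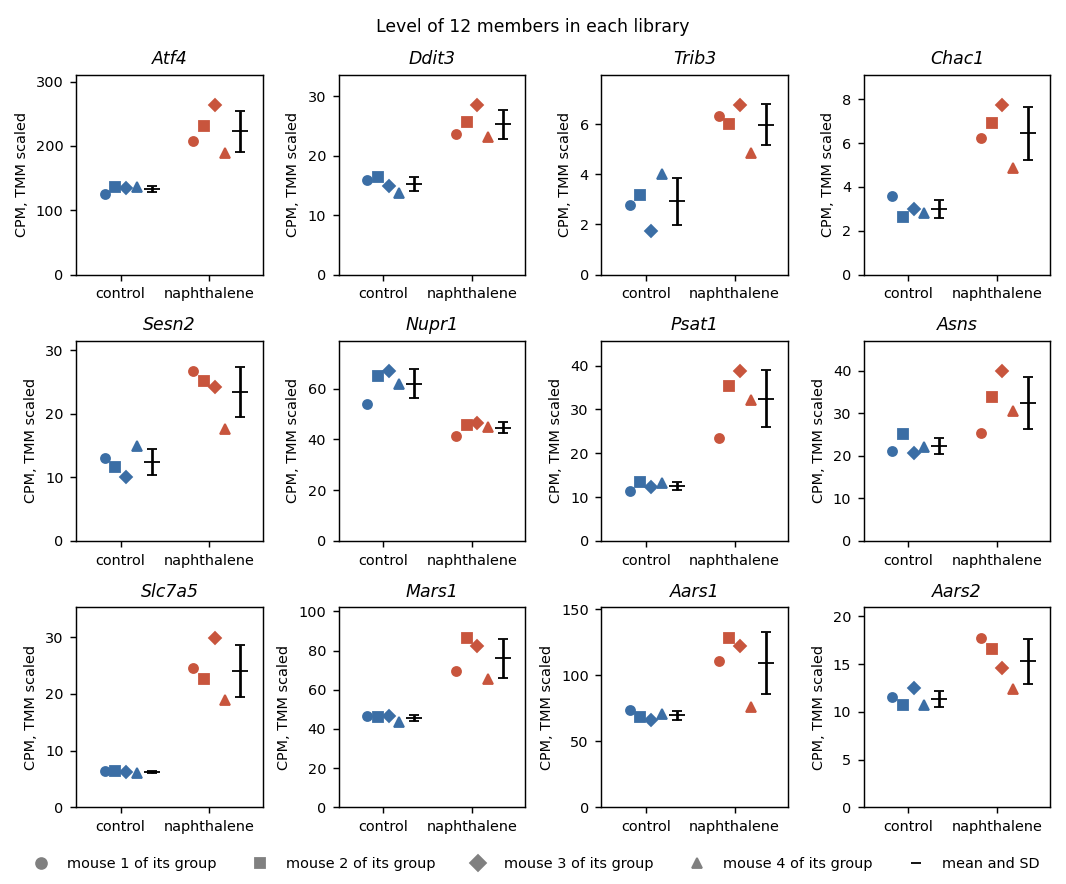
Level in CPM (y axis, from 0) of 12 genes in each library, controls in blue and naphthalene in red, 1 symbol per mouse, with the group mean and SD in black. For 11 of the 12 genes, Aars2 being the other, the groups do not overlap, and for Nupr1 the injected mice are the lower group.

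Promoters of these genes were searched for the C/EBP-ATF composite motif, in 300-base windows from RefSeq that run from 250 bases before to 50 bases after the start site. The motif was spelled TGATGNAA and read on both strands. Its shorter core TGATGNA was searched as well, with its shares given among the alternative settings below. No motif other than these was searched. Windows were found for 44 of the 56 genes, and 9 of these (20.5%) held the motif, against 4.51% of 27025 genes with a window. All 9 were genes called different between the groups. They were 8 of the 22 called higher that had a window and the 1 called lower. Of the 16 not past the threshold, 0 held the motif, which for so few genes is near the 4.51% of all genes. Most of those 16 are mitochondrial synthetases, so call and role cannot be told apart here. Among the 8, the calls of Iars1 and Yars1 were not firm, each being lost under 10 of 17 alternative fits. By role the motif was in 3 of 7 regulators, 1 of 6 synthesis enzymes, 0 of 3 transporters, 5 of 14 cytosolic and 0 of 14 mitochondrial synthetases. Slc7a5, Nars1, Hars, Cars1, Wars1 and Rars1 rose but had no window, and so were not searched. A match describes these letters and does not show binding, and a window without it says nothing of elements elsewhere. Atf4, Ddit3, Sesn2 and Psat1 rose and had no match in their windows.

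The 6 genes with a match before the start site are shown because they include the synthetases Aars1, Gars and Tars1 beside the classical target Asns and the regulators that moved in opposite directions. Each stretch is from the RefSeq table on GRCm38.p6, another build than the mm39 of the counts, and reads 5′ to 3′ along the gene, with the motif on either strand in capitals. The stretches are Asns at chr6:7693210-7693339, minus strand, Chac1 at chr2:119351009-119351138, plus strand, Nupr1 at chr7:126625471-126625600, minus strand, Aars1 at chr8:111033712-111033841, plus strand, Gars at chr6:55037871-55038000, plus strand and Tars1 at chr15:11399659-11399788, minus strand.
Asns: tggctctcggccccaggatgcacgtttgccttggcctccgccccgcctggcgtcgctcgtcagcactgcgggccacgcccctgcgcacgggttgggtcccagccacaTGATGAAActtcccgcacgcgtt
Chac1: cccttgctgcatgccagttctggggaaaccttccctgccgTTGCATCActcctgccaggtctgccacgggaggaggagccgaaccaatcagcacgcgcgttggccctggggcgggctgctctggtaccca
Nupr1: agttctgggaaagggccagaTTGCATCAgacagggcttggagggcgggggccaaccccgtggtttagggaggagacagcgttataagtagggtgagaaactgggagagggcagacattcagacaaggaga
Aars1: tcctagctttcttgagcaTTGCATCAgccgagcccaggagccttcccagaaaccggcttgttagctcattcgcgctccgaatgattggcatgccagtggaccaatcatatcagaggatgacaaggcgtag
Gars: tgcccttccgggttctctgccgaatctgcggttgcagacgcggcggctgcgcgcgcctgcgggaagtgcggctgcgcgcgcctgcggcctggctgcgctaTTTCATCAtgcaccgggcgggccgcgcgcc
Tars1: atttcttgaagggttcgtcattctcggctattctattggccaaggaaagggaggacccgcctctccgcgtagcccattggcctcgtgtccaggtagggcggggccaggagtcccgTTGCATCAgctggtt

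The leftmost base of the motif lay 23 bases before the start of Asns, 193 before Chac1, 110 before Nupr1, 112 before Aars1, 30 before Gars and 15 before Tars1. Of the 6, Chac1, Nupr1, Aars1 and Tars1 carry the same 8 letters, TTGCATCA, so the gene that fell and 3 that rose share them. In Trib3, Iars1, Yars1 and a second place in Aars1, the motif lay just after the start site, at chr2:152344031-152344054, minus strand, chr13:49682129-49682152, plus strand, chr4:129189898-129189921, plus strand and chr8:111033843-111033866, plus strand. Positions in Gars and Trib3 rest on the RefSeq start alone, since the first bases after it were found in no GENCODE M21 transcript of these 2 genes, while they were found for the other 7. Only the site and 8 bases to each side are shown.
Trib3: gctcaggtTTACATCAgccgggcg
Iars1: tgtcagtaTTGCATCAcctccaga
Yars1: agctcagcTGATGCAAcccgacgg
Aars1: gggtcactTTTCATCAgagcgctc

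Among the enzymes, the serine branch was uneven. Psat1, the aminotransferase of serine synthesis, stood at 11.3, 13.4, 12.3 and 13.2 CPM in controls 1 to 4 and 23.6, 35.4, 38.7 and 32.2 CPM in naphthalene 1 to 4 (log2 fold change 1.37, SE 0.16, adjusted p = 0.000134). This was the second largest change of the 50 genes, and naphthalene 1 was well below the other injected mice. Psph, the phosphatase that completes serine synthesis, stood at 8.43, 8.42, 9.49 and 8.24 CPM in controls 1 to 4 and 10.4, 11.3, 15.3 and 10.3 CPM in naphthalene 1 to 4 (log2 fold change 0.45, SE 0.14, adjusted p = 0.048). Its groups did not overlap, but the call was lost without any 1 of the 4 controls, naphthalene 2 or naphthalene 3 (adjusted p 0.0557 to 0.130). Phgdh, the first enzyme of the same branch, stood at 10.1, 12.05, 10.2 and 9.74 CPM in controls 1 to 4 and 8.93, 6.33, 7.82 and 9.80 CPM in naphthalene 1 to 4 (log2 fold change -0.36, SE 0.15, adjusted p = 0.115). Thus the 3 enzymes of 1 linear pathway had log2 fold changes of -0.36, 1.37 and 0.45 in the order in which they act.

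Asns, asparagine synthetase and a widely used marker of ATF4 activity, stood at 21.2, 25.1, 20.7 and 22.2 CPM in controls 1 to 4 and 25.3, 33.9, 39.9 and 30.7 CPM in naphthalene 1 to 4 (log2 fold change 0.54, SE 0.15, adjusted p = 0.0155). Naphthalene 1 lay just above the highest control, and naphthalene 3 farthest from it. Mthfd2, a mitochondrial enzyme of folate one-carbon metabolism, stood at 5.02, 5.88, 5.10 and 4.65 CPM in controls 1 to 4 and 7.44, 9.001, 11.2 and 6.59 CPM in naphthalene 1 to 4 (log2 fold change 0.73, SE 0.18, adjusted p = 0.0149), without overlap between the groups. Shmt2, the mitochondrial enzyme that takes the one-carbon unit from serine, had a log2 fold change of 0.18 (SE 0.15, adjusted p = 0.404) and did not pass.

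Amino acid transporters held the largest change. Slc7a5, the light chain LAT1 that imports leucine and other large neutral amino acids, stood at 6.36, 6.46, 6.24 and 6.02 CPM in controls 1 to 4 and 24.6, 22.6, 29.9 and 18.9 CPM in naphthalene 1 to 4 (log2 fold change 1.93, SE 0.14, adjusted p = 2.18e-05). The controls lay within 6.02 and 6.46 CPM, and the lowest injected mouse, naphthalene 4, was at 18.9 CPM. The fitted change was 3.82-fold, and the gene ranked 32 by p value among all tested genes. Slc3a2, the heavy chain 4F2hc with which LAT1 pairs, stood at 128, 125, 124 and 146 CPM in controls 1 to 4 and 210.2, 195, 176 and 132 CPM in naphthalene 1 to 4 (log2 fold change 0.45, SE 0.16, adjusted p = 0.0261). Naphthalene 4 fell within the range of the controls for this gene. Slc7a1, the cationic transporter CAT1, stood at 31.7, 28.8, 27.7 and 30.9 CPM in controls 1 to 4 and 38.03, 43.2, 54.4 and 31.6 CPM in naphthalene 1 to 4 (log2 fold change 0.49, SE 0.17, adjusted p = 0.0313), with naphthalene 4 just below control 1.

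The neutral amino acid transporter Slc38a2 (SNAT2) stood at 218, 212, 242 and 208 CPM in controls 1 to 4 and 217, 267, 317 and 282 CPM in naphthalene 1 to 4 (log2 fold change 0.30, SE 0.12, adjusted p = 0.0792) and did not pass, with naphthalene 1 inside the range of the controls. Slc1a5, the glutamine transporter ASCT2, had a log2 fold change of -0.07 (SE 0.11, adjusted p = 0.665). Of these 5 transporters only Slc7a5 kept its call in every fit. Slc3a2 lost it on leaving out any of 5 libraries, controls 1, 2 and 3 and naphthalene 2 and 3 (adjusted p 0.0545 to 0.0804), and Slc7a1 on leaving out any of 6, the 4 controls and naphthalene 2 and 3 (0.0565 to 0.0847). Leaving out control 1, 2 or 3 or naphthalene 2 or 3 thus left only Slc7a5, while leaving out naphthalene 1 gave 4 transporters.

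Most cytosolic synthetases rose. All 18 tested genes had a log2 fold change above 0, with a median of 0.47 and a range of 0.03 to 0.74, and 14 rose. Mars1, the methionyl enzyme, stood at 46.7, 46.01, 46.4 and 43.3 CPM in controls 1 to 4 and 69.8, 86.5, 82.5 and 65.5 CPM in naphthalene 1 to 4 (log2 fold change 0.74, SE 0.10, adjusted p = 0.000543). Its controls were within 43.3 and 46.7 CPM, and the lowest injected mouse was at 65.5 CPM. Nars1, the asparaginyl enzyme that uses the product of Asns, stood at 93.1, 99.9, 97.2 and 98.2 CPM in controls 1 to 4 and 133, 154, 163 and 135 CPM in naphthalene 1 to 4 (log2 fold change 0.59, SE 0.08, adjusted p = 0.000841). Hars, the histidyl enzyme, stood at 37.7, 38.02, 35.1 and 39.1 CPM in controls 1 to 4 and 57.4, 63.6, 65.6 and 50.7 CPM in naphthalene 1 to 4 (log2 fold change 0.66, SE 0.09, adjusted p = 0.000843). Cars1, the cysteinyl enzyme, stood at 37.5, 33.96, 31.02 and 36.3 CPM in controls 1 to 4 and 50.7, 50.5, 49.6 and 44.96 CPM in naphthalene 1 to 4 (log2 fold change 0.50, SE 0.07, adjusted p = 0.00299). In these 4 genes no injected mouse overlapped the controls.

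The other 10 that rose had log2 fold changes of 0.34 to 0.65. Those for Aars1, Gars, Tars1, Wars1, Sars1 and Kars1 (alanine, glycine, threonine, tryptophan, serine and lysine, of which Gars and Kars1 also make the mitochondrial enzyme) were 0.65, 0.52, 0.50, 0.49, 0.47 and 0.47, all without overlap between groups. Aars1 reached 128 CPM in naphthalene 2 but only 76.1 CPM in naphthalene 4, close to the highest control at 74.0 CPM. Farsa, Rars1, Iars1 and Yars1 (the phenylalanyl alpha subunit and the arginine, isoleucine and tyrosine enzymes) rose by 0.38, 0.45, 0.34 and 0.45. Each of these 4 lost its call without control 2 or naphthalene 2, among other libraries (adjusted p 0.0552 to 0.145), and without 1 library 10 to 14 cytosolic synthetases passed.

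Wars1 is also known as a gene induced by interferon gamma. Of 12 tested interferon gamma response genes 10 fell and 0 rose, with a summed level of 577 to 702 CPM in controls and 368 to 442 CPM after naphthalene. Wars1 stood at 86.7, 101, 86.7 and 84.6 CPM in controls 1 to 4 and 141, 134, 121 and 107 CPM in naphthalene 1 to 4 (log2 fold change 0.49, SE 0.11, adjusted p = 0.00578), and every injected mouse was above every control. Within each group the library highest for Wars1 was also highest for the summed interferon gamma response genes. These were control 2 and naphthalene 1, with sums of 702 and 442 CPM. Control 4 was the lowest control for both. Among injected mice, naphthalene 4 was lowest for Wars1 but naphthalene 3 for the sum (368 CPM). The part of interferon gamma in the level of Wars1 was not tested.

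Lars1, Qars1, Vars1 and Tars3 did not pass. Lars1, the leucyl enzyme, stood at 99.1, 102, 111 and 102 CPM in controls 1 to 4 and 105, 124, 132 and 118 CPM in naphthalene 1 to 4 (log2 fold change 0.21, SE 0.08, adjusted p = 0.103), with naphthalene 1 inside the range of the controls. Qars1, the glutaminyl enzyme, had a small difference without overlap (log2 fold change 0.20, adjusted p = 0.107). Vars1, the valyl enzyme, varied widely within both groups, from 48.3 to 75.8 CPM in controls and from 52.7 to 90.7 CPM after naphthalene. Tars3, a second threonyl enzyme, had a log2 fold change of 0.03 (SE 0.20).

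Mitochondrial synthetases mostly did not pass. Of 14 tested genes 2 rose and 0 fell, a share of 14.3% close to the 14.1% of all genes, and the median log2 fold change was 0.03 with a range of -0.24 to 0.48. Aars2, the alanyl enzyme, stood at 11.6, 10.7, 12.5 and 10.7 CPM in controls 1 to 4 and 17.7, 16.6, 14.6 and 12.4 CPM in naphthalene 1 to 4 (log2 fold change 0.44, SE 0.12, adjusted p = 0.035), with naphthalene 4 below control 3. Yars2, the tyrosyl enzyme, stood at 7.98, 10.5, 11.1 and 10.5 CPM in controls 1 to 4 and 11.4, 12.6, 15.6 and 16.8 CPM in naphthalene 1 to 4 (log2 fold change 0.48, SE 0.17, adjusted p = 0.0442), and here naphthalene 4 was the highest library. Sars2, the seryl enzyme, stood at 5.56, 4.86, 2.64 and 3.87 CPM in controls 1 to 4 and 5.24, 5.22, 5.54 and 6.32 CPM in naphthalene 1 to 4 (log2 fold change 0.39, SE 0.23, adjusted p = 0.211) and did not pass, with naphthalene 1 to 3 all below control 1. Counts of Sars2 were low, at most 88 in a library.

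Neither of the 2 calls was firm. Aars2 did not pass on leaving out any library other than control 3 and naphthalene 4 (adjusted p 0.0556 to 0.0996), nor Yars2 without any 1 library but naphthalene 1 (0.0521 to 0.120). With library size alone in place of TMM scaling, 0 mitochondrial synthetases rose and 1, Fars2, fell. Fars2 and Wars2, for phenylalanine and tryptophan, had the lowest values, -0.24 (adjusted p = 0.0718) and -0.24 (adjusted p = 0.159). Tars2 and Vars2 were at 0.23 and 0.21, and Rars2, Ears2, Nars2, Pars2, Cars2, Hars2 and Lars2 lay between -0.08 and 0.05.

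For 12 amino acids both the cytosolic and the mitochondrial gene were tested, which allowed the ratio of the 2 to be followed within each library, where library scaling nearly cancels. The pairs were compared after the values above were known. The log2 ratio of cytosolic to mitochondrial gene was higher after naphthalene for 10 of the 12 pairs, with a median difference of 0.33. In 6 pairs the 4 injected and 4 control libraries did not overlap, and each reached the smallest p that 70 splits of 4 against 4 allow (exact 2-sided permutation p = 0.0286, adjusted over the 12 pairs 0.0571). No pair could therefore pass 0.05 after adjustment with only 6 at that limit.

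Those 6 pairs were Wars1 over Wars2, where the log2 ratio went from 2.19 ± 0.10 to 2.91 ± 0.26 (SD, n = 4 per group), Hars over Hars2, Farsa over Fars2, Nars1 over Nars2, Cars1 over Cars2 and Rars1 over Rars2. Their differences were 0.72, 0.70, 0.61, 0.56, 0.53 and 0.38. Differences for leucine, threonine and alanine were 0.29, 0.25 and 0.21, with overlapping groups. The seryl, valyl and tyrosyl pairs differed by 0.03 (SE 0.26), -0.00 (SE 0.17) and -0.04 (SE 0.33).

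**Figure D3:**
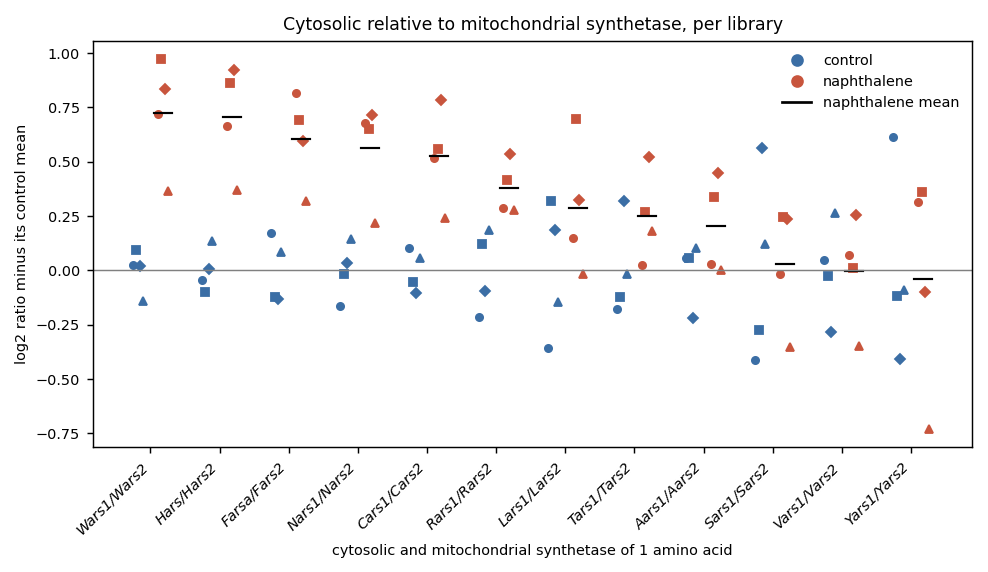
Log2 ratio of cytosolic to mitochondrial synthetase minus its mean in controls (y axis) for 12 amino acids (x axis, ordered by the difference), 1 point per library, controls in blue, naphthalene in red and the naphthalene mean as a black line. From tryptophan (Wars1/Wars2) to arginine (Rars1/Rars2) all red points lie above all blue ones, and the last 3 pairs are mixed.

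Genes that work with the synthetases were taken from a list that is separate from the 56. Of 11 tested scaffolds and charging accessories 3 (27.3%) rose, against 14.1% of all tested genes, and 0 fell (median log2 fold change 0.16). The 3 were the non-catalytic proteins that hold the cytosolic multi-synthetase complex together. Eef1e1 (AIMP3) rose from 9.40 ± 1.01 to 18.9 ± 5.36 CPM (mean ± SD, n = 4 per group, adjusted p = 0.0035 by edgeR), Aimp2 from 8.14 ± 0.622 to 12.6 ± 1.80 CPM and Aimp1 from 30.6 ± 1.32 to 41.8 ± 5.28 CPM. The mitochondrial amidotransferase genes Gatb, Gatc and Qrsl1 had values of -0.08, -0.17 and 0.17 and did not pass, nor did the mitochondrial formyltransferase Mtfmt at 0.03.

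Upstream of ATF4 stand the eIF2 kinases, eIF2 itself, its exchange factor eIF2B and its phosphatase subunits. Of 11 tested genes 6 (54.5%) rose, against 14.1% of all tested genes, and 0 fell, with a median of 0.38. The 6 were the eIF2B exchange factor subunits Eif2b3, Eif2b1, Eif2b5 and Eif2b4, the eIF2 alpha subunit Eif2s1 and Ppp1r15a (GADD34). The last directs dephosphorylation of eIF2. Eif2b3 rose from 17.7 ± 1.24 to 30.2 ± 5.79 CPM (log2 fold change 0.76, SE 0.14, adjusted p = 0.00233), Ppp1r15a from 32.02 ± 3.26 to 48.2 ± 6.33 CPM and Eif2b1 from 20.1 ± 1.23 to 28.5 ± 3.85 CPM. The fifth subunit, Eif2b2, was at 0.02 (adjusted p = 0.92) and did not pass. Eif2b4 did not pass without naphthalene 3 (adjusted p 0.0545). The kinases Eif2ak1 (HRI), Eif2ak2 (PKR), Eif2ak3 (PERK) and Eif2ak4 (GCN2), whose activity messenger levels do not show, were at 0.17, -0.13, 0.16 and 0.03 and did not pass. Ppp1r15b was listed at 0 and not tested, so no level can be given for it.

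Among 19 tested partners and further targets of ATF4, 7 (36.8%) rose, against 14.1% of all tested genes, and 0 fell, with a median of 0.29. Ddit4 (REDD1), an mTORC1 inhibitor, rose from 11.4 ± 1.83 to 30.8 ± 2.47 CPM (log2 fold change 1.44, SE 0.14, adjusted p = 5.11e-05). Slc7a11, the cystine transporter that ATF4 shares with NRF2, rose from 8.21 ± 2.04 to 63.6 ± 25.7 CPM (log2 fold change 2.95, SE 0.35, adjusted p = 6.64e-05). Jdp2, a bZIP repressor, rose from 20.1 ± 0.524 to 31.2 ± 1.78 CPM. The other 4 were Eif4ebp1, Mthfd1l, Gdf15 and Cebpg, at 0.74, 0.65, 2.17 and 0.33. Counts of Gdf15 were low, 189 over all libraries, with means of 0.63 CPM in controls and 2.98 CPM after naphthalene (SE 0.51). Cebpg did not pass without control 1, 2 or 4 or naphthalene 3 (adjusted p up to 0.0768). Slc7a3, a cationic amino acid transporter, and Cbs, the first enzyme of transsulfuration, were at -0.67 (adjusted p = 0.0991) and -0.42 (adjusted p = 0.125). Both were lower in all injected mice than in all controls but not past the threshold, and Slc7a3 had only 180 counts over all libraries. Other targets that did not pass were Cebpb (0.39), Aldh18a1 (0.29), Xpot (0.16), Gpt2 (-0.21), Slc6a9 (-0.02), Cth (0.36), Stc2 (-0.03), Pycr1 (-0.18), Aldh1l2 (0.09) and Vldlr (0.01). Atf3 was listed at 0 in all libraries and not tested, so whether it was expressed is not known from these counts.

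In the folate and serine cycle 3 of 11 tested genes (27.3%) rose, against 14.1% of all tested genes, and 0 fell (median 0.18). Without control 3, 5 rose. Ahcy, which removes S-adenosylhomocysteine, rose from 15.2 ± 1.10 to 27.1 ± 2.77 CPM (log2 fold change 0.83, SE 0.09, adjusted p = 0.000428), Gcsh, a glycine cleavage protein, from 15.7 ± 1.09 to 24.3 ± 1.65 CPM and Mtrr, which reactivates methionine synthase, from 14.5 ± 1.44 to 22.2 ± 0.906 CPM. The cytosolic enzymes Shmt1 and Mthfd1 were at 0.02 and 0.26 and did not pass.

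Injected mice differed in how far they moved. The median deviation of the 50 genes from the control mean, in log2 CPM, was 0.34, 0.42, 0.46 and 0.23 in naphthalene 1 to 4, against -0.04 to 0.02 in the controls and -0.00 to 0.00 in every library for all tested genes. Naphthalene 4 was the lowest injected mouse for 23 of the 28 genes that rose, and naphthalene 1 for the other 5. Naphthalene 3 was the highest for 17 of the 28. For mitochondrial synthetases the medians were 0.03, -0.00, 0.04 and 0.12, with naphthalene 4 the highest. Both libraries stood at one end of their group for some cell type markers. Summed red blood cell markers were at 2960 CPM in naphthalene 3, against 51.9 to 631 CPM in the other injected mice and 31.4 to 1257 CPM in the controls, and 0 of the 5 genes passed the test. Naphthalene 4 was the highest injected mouse for the sums of alveolar type 2 (20104 CPM), alveolar type 1 (7641 CPM), neutrophil (538 CPM) and alveolar macrophage markers (1086 CPM, with Marco listed at 0). Naphthalene 3 was next for the neutrophil and alveolar macrophage sums, at 507 and 960 CPM. Endothelial markers were lowest in naphthalene 4 and naphthalene 3 (1898 and 2110 CPM, against 2896 and 4027 CPM in the other 2). Naphthalene 4 was the lowest injected mouse for fibroblast markers (1612 CPM, with Col3a1 listed at 0). It was the highest for monocyte and macrophage markers (354 CPM). Naphthalene 4 was also the smallest library of its group. The part of any of these in the response was not tested. Without naphthalene 4, 27 of the 50 genes rose and 2 fell, the second being Fars2 at -0.28 (adjusted p = 0.0402).

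**Figure D4:**
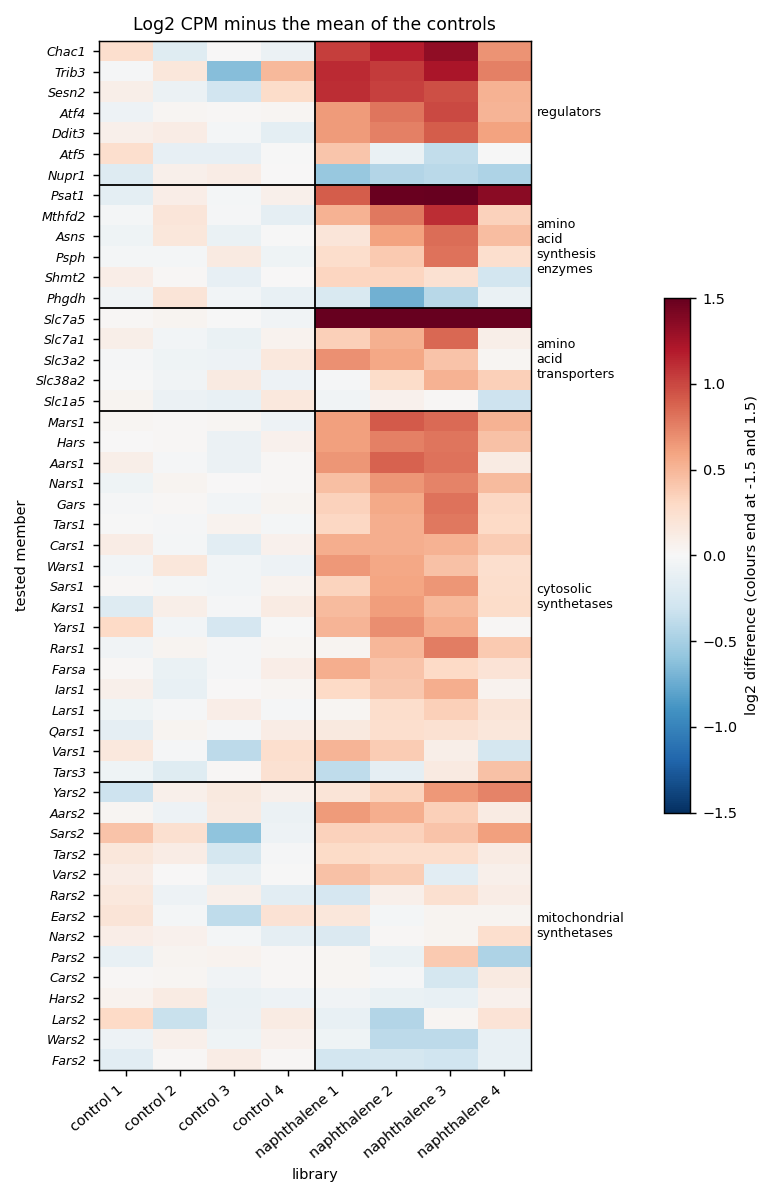
Log2 CPM minus the mean of the controls (colour, red above and blue below, ending at -1.5 and 1.5) for the 50 tested genes (rows, grouped by role) in the 8 libraries (columns). The upper 4 groups are mostly red in the naphthalene columns, palest in naphthalene 4, and the mitochondrial synthetases at the bottom are mixed.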

How the data were processed

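RNA-seq of whole mouse lung lobes was measured in 8 libraries, from 4 control and 4 injected mice per the labels' protocols. The values are raw counts per gene, deposited by the authors in 1 table. The submitters' processing notes list featureCounts 2.0.6, HISAT2 2.2.1, Trim Galore 0.6.7 and edgeR 4.2.1, and the build mm39. Settings for strand and multimapping, and the annotation, were not given in the sources used here, so reads shared with overlapping genes or pseudogenes cannot be told apart.

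All genes were fitted together in R 4.3.3 with edgeR 4.0.16 (TMM scaling, filterByExpr with a minimum count of 10 and total of 15, quasi-likelihood F test, group as the only term, Benjamini-Hochberg threshold 0.05). CPM uses TMM-scaled library sizes. SEs of log2 fold changes are from log2 CPM with a prior count of 2. Alternatives used limma 3.58.1, DESeq2 1.42.0, other scalings and filters, a replicate block and each library left out. No 2 libraries of a group agreed within sampling noise (chi-square per degree of freedom at least 5.72). Per-library values are given for the Atf4, Atf5, Ddit3, Asns and Trib3 genes, for the up to 4 genes per role with the smallest p, for any called against its role, and for uncalled genes that lead a statement. Some gene names are not reported here. The genes and lists were chosen with earlier results of these data known. The synthetase pair ratios and the joint omission of control 3 and naphthalene 1 were added after values were seen. Promoter windows are from RefSeq on GRCm38.p6, and exon lengths from GENCODE M21.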

Additional observations from a re-analysis of the deposited data

Results flagged for a closer look

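In 4 of 100 groups of 4 libraries, 2 for each of the 50 tested genes, 1 library lay far from the other 3, and chance gives about 1 in 20 such groups. Atf4 was lowest in control 1 at 126 CPM, with the other controls between 134 and 136 CPM. This library lay farther from the injected mice than the other controls did. Psph was highest in control 3 at 9.49 CPM, against 8.24 to 8.43 CPM in the others, and naphthalene 4 was at 10.35 CPM. Wars1 was highest in control 2 at 100.6 CPM, against 84.6 to 86.7 CPM in the others, and this library also had the highest summed level of interferon gamma response genes, 702 CPM. Tars2, a mitochondrial threonyl synthetase that did not pass the test, was lowest in naphthalene 4 at 33.6 CPM, against 37.2 to 37.7 CPM in the other injected mice.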

How the results depend on the processing

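Of the 29 called genes, 20 kept their call under all 17 alternatives, namely 3 scalings, 2 filters, the replicate block, DESeq2, voom with quality weights, each library left out and, added after seeing the data, control 3 and naphthalene 1 both left out. The 9 others, with log2 fold changes of 0.34 to 0.49, each lost it without at least 1 library. Replicate numbers did not pair the libraries (correlation of deviations between same-numbered libraries 0.29, 0.03, 0.18 and -0.09, with only number 1 highest for its own number), and the replicate block gave 28 higher and 1 lower gene, changed no call among the 50 genes and moved Atf5 from 0.01 to -0.00946. The number of higher genes among the 50, 28 in the main fit, depended on the setting. It was 20 with library size only, 24 with upper quartile scaling, 23 without the low count filter and 31 with voom. Without control 3 and naphthalene 1 together it was 25. It stayed at 28 with RLE scaling, the stricter filter, the replicate block and DESeq2. With library size only, 2 of the genes were lower and 1 transporter was higher. With the same scaling, 0 mitochondrial synthetases were higher and 1 lower, and Atf5, Tars3, Ears2 and Nars2 stood at -0.0370, -0.0214, -0.0158 and -0.0254. With upper quartile scaling 1 mitochondrial synthetase was higher, and Atf5 and Nars2 were at -0.0173 and -0.00335. Without the low count filter 0 mitochondrial synthetases were higher and Atf5 was at -0.000581. Voom called 3186 genes higher and 3317 lower in all, with 4 of the 50 genes lower (Nupr1, Phgdh, Fars2 and Wars2, thus 1 synthesis enzyme and 2 mitochondrial synthetases) and 1 folate gene, and put Atf5, Slc1a5, Tars3, Ears2 and Nars2 at -0.0569, 0.0130, -0.0593, -0.0385 and -0.0100. Without control 3 and naphthalene 1 together, 1 mitochondrial synthetase and 5 folate genes were higher, and Atf5, Vars1, Ears2 and Pars2 were at -0.196, -0.0381, -0.118 and 0.00313. Leaving out 1 library gave 1 to 4 transporters higher, 1 to 2 genes lower, 0 to 1 mitochondrial synthetases higher and 0 to 1 lower, and 3 to 5 folate genes higher. The same range was -0.15 to 0.12 for Atf5, -0.0754 to 0.0513 for Cars2, -0.0773 to 0.11 for Ears2, -0.19 to 0.0271 for Lars2, -0.0568 to 0.10 for Nars2, -0.16 to 0.12 for Pars2, -0.0132 to 0.14 for Rars2, -0.11 to 0.00778 for Slc1a5 and -0.13 to 0.15 for Tars3. For the ratios it was -0.11 to 0.22 for Sars1 over Sars2, -0.10 to 0.11 for Vars1 over Vars2 and -0.17 to 0.19 for Yars1 over Yars2. None of the genes whose sign turned passed the test. The cause was not tested. The 7-letter core TGATGNA was in 13.8% of all genes and 29.5% of the genes described, and the 8-letter motif before the start site in 3.91% and 13.6%.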

Other observations

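Levels were set side by side per kilobase of exon, with the exons of all GENCODE M21 transcripts of a gene merged. Such a length can exceed that of the messenger present, so the order is rough. By this measure Atf4 was the highest of the 50 tested genes in controls at 56.3 CPM per kb, followed by Slc3a2 (36.96), Slc1a5 (29.2) and Wars1 (26.01). Without division by length, Slc38a2 stood above Atf4 in controls, at 220 against 133 CPM. The lowest were Sars2 (1.28), Trib3 (1.38), Mthfd2 (1.48) and Slc7a5 (1.69). The transporter light chain Slc7a5 and its partner heavy chain Slc3a2 thus stood far apart in controls, at 1.69 and 36.96 CPM per kb, and closer as a ratio after naphthalene, at 6.47 and 50.5 CPM per kb. Slc3a2 also pairs with other light chains, among them Slc7a11, which rose by 2.95 on the log2 scale.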
